A study of Mus musculus with 6 samples.

Results

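Apc, Axin2, Lgr5 and Tcf7l2 are 4 genes of the canonical Wnt pathway, and their DNA methylation was followed in the colon epithelium of mice. In this pathway a Wnt ligand stops a destruction complex from degrading beta-catenin, which then enters the nucleus and acts with TCF/LEF factors on target genes. The pathway keeps the stem cells at the base of the intestinal crypt dividing, and its unchecked activity is the usual first step of colorectal tumours. Apc is a scaffold of the destruction complex and a tumour suppressor. Axin2 is a further scaffold of that complex and is itself switched on by Wnt signalling, so that it acts as negative feedback. Lgr5 is a receptor for R-spondins, which strengthen Wnt signalling, and it marks crypt stem cells. Tcf7l2 (TCF4) is the main TCF/LEF factor of the intestinal epithelium. Methylation of CpG-rich promoters goes with silencing, whereas most CpGs inside gene bodies are methylated as a rule.

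The members were all captured regions that overlap a window around each gene in build mm9, drawn as the gene plus about 2 kb on each side. The windows ran from 34378000 to 34485000 on chromosome 18 for Apc, from 108779000 to 108815000 on chromosome 11 for Axin2, from 114885000 to 115028000 on chromosome 10 for Lgr5 and from 55813000 to 56011000 on chromosome 19 for Tcf7l2. They held 117 of the 209687 regions of the files: 15 in Apc, 23 in Axin2, 15 in Lgr5 and 64 in Tcf7l2, with 998 CpGs between them. A value in all 6 libraries, which the tests needed, was there for 94 of the 117, namely 15 in Apc, 16 in Axin2, 13 in Lgr5 and 50 in Tcf7l2. Of the 23 others, 2 regions of Tcf7l2 had no value in any library. The windows were drawn from gene positions and not from these values, but the members were chosen with earlier results of these data known.

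Colon epithelial cells of 18-week-old C57BL/6 mice, an inbred strain, were scraped off colons from which the proximal part and right-sided tumours had been cut away, with washes against blood cells. There were 3 groups of 2 libraries. The first came from mice that received curcumin, a polyphenol of turmeric, on top of AOM/DSS, which is the carcinogen azoxymethane plus the irritant dextran sulfate sodium, a standard model of colitis-associated tumours. The second came from mice with AOM/DSS alone, and the third from control mice. All groups share strain, age and tissue, and none carries a mutant allele in the labels. The labels do not say whether the libraries of a group were taken from different mice, and the p-values reflect the scatter among these 6 libraries alone, which may be technical.

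Levels are given in percent: of all calls made at the CpGs of a region, those that read as methylated. Bisulfite reads do not separate 5-methylcytosine from 5-hydroxymethylcytosine. Total calls per library ran from 24682973 to 30727568, and the mean level over the 179922 regions with 6 values ran from 40.2 to 41.3%. A value of a tested member rested on 20 to 433 calls. The epithelial label was not checked against marker genes, since no mm9 annotation was used here. For the same reason regions were not assigned to exons, introns or UTRs, and no other genes of the pathway were placed.

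The promoters of Axin2 and Tcf7l2 are dense in CpGs. The 2 sequences below are from RefSeq, build GRCm38.p6, plus strand, and span 250 bases before to 50 bases after the annotated start. They are printed because both genes had a run of regions near 0% at the promoter, and capitals mark the CpGs. Their positions belong to GRCm38.p6 and are not those of the mm9 regions.
Axin2, chr11:108920099-108920398: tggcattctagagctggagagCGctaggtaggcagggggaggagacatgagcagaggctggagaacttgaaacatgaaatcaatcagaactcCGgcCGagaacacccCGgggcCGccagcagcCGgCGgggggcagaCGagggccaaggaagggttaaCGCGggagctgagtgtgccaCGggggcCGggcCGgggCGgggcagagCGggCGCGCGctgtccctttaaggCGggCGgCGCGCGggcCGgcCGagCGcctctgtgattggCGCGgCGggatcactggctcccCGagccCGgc
Tcf7l2, chr19:55741560-55741859: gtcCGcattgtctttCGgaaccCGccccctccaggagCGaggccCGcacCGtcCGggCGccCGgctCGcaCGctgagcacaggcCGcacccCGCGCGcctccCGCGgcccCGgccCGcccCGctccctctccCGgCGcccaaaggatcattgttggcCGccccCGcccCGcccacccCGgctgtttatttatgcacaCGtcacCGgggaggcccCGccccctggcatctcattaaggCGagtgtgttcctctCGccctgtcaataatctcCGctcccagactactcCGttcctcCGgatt

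The Axin2 sequence held 31 CpGs and the Tcf7l2 sequence 34, against a median of 7 over the 32851 promoters of the same length in the table. The observed over expected CpG ratio was 0.886 in Axin2 and 1.01 in Tcf7l2, against a median of 0.384. A second start of Tcf7l2 in the table, inside the gene, had 7 CpGs. The TCF/LEF motif CTTTGAT, searched on both strands, was in none of these 3 windows and in 3.73% of all promoters. The related CTTTGTT was in the window of the second Tcf7l2 start and in 5.85% of all promoters.

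All 4 genes had a nearly unmethylated promoter in every library, whatever the treatment. The promoter end was taken as the first 4 kb of the window from its 5′ edge, which is the upper edge for Lgr5, a gene of the reverse strand. The 5 promoter-end regions of Apc averaged 0.656% ± 0.464 with AOM/DSS plus curcumin, 1.02% ± 0.114 with AOM/DSS and 1.03% ± 0.147 in control (SD, n = 2 each). The 3 of Lgr5 averaged 0.935% ± 0.131, 1.36% ± 0.242 and 1.28% ± 0.916 in the same groups (SD, n = 2 each). The 4 of Tcf7l2 averaged 0.9195% ± 0.394, 1.24% ± 0.0974 and 1.03% ± 0.422 (SD, n = 2 each). Single regions averaged from 0.598 to 1.1% in Apc, from 1.13 to 1.28% in Lgr5 and from 0.299 to 1.4% in Tcf7l2. For these 3 genes AOM/DSS overlapped control, and in no pair of groups did the means differ by as much as 1 point.

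The region with most CpGs at each promoter end shows this in single libraries. In Lgr5 it lay on chromosome 10 from 115024486 to 115024918, had 31 CpGs, and stood at 0.633% and 1.22% with AOM/DSS plus curcumin, 1.92% and 2.26% with AOM/DSS, and 0% and 1.67% in control. The 0% was 0 of 250 calls, which allows a level of up to 1.2%. In Apc it lay on chromosome 18 from 34380166 to 34380569, had 26 CpGs, and stood at 0.299% and 0.623% with AOM/DSS plus curcumin, 1.35% and 0.282% with AOM/DSS, and 1.90% and 1.61% in control. Here both AOM/DSS libraries lay below both controls, by 0.94 points on average, without passing the test (edgeR quasi-likelihood test, adjusted p = 0.849). In Tcf7l2 it lay on chromosome 19 from 55816926 to 55817208, had 29 CpGs, and stood at 1.76% and 1.44% with AOM/DSS plus curcumin, 0.295% and 1.38% with AOM/DSS, and 1.35% and 2.16% in control. The levels of the Tcf7l2 region overlapped between AOM/DSS and control.

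The Axin2 promoter end held an island and its methylated flank. Its 5 regions with 6 values averaged 24.1% ± 0.175 with AOM/DSS plus curcumin, 24.1% ± 0.685 with AOM/DSS and 23.9% ± 0.157 in control (SD, n = 2 each), a mean of very unequal parts. The outermost region, from 108780102 to 108780469 with 9 CpGs, averaged 94.98% over the 6 libraries. The next, from 108780822 to 108781107 with 8 CpGs, averaged 23.3%. The region with most CpGs, from 108782753 to 108782896 with 15 CpGs, stood at 0.87% and 0% with AOM/DSS plus curcumin, 1.59% and 1.68% with AOM/DSS, and 0% and 0.667% in control, on 84 to 179 calls. The drop from nearly complete methylation to nearly none lay at the same place in all 3 groups.

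**Figure D1:**
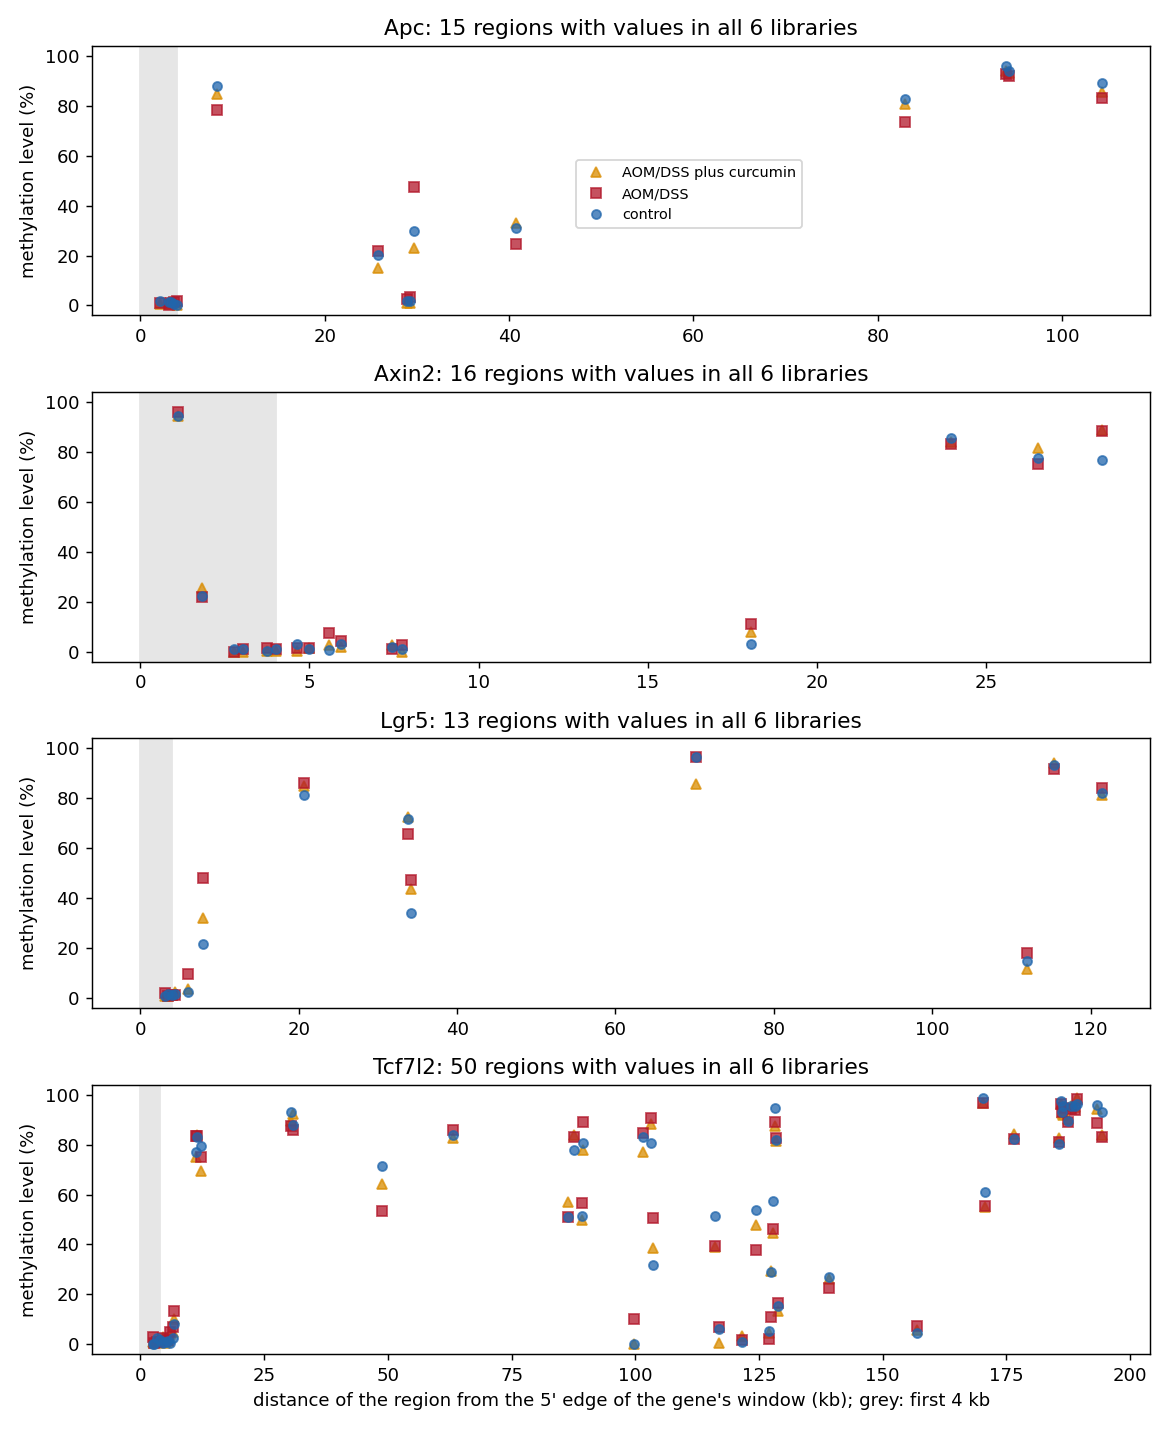
Methylation level in percent of each region with values in all 6 libraries, against its distance from the 5′ edge of the gene's window in kb, as group means of 2 libraries (triangles AOM/DSS plus curcumin, squares AOM/DSS, circles control; the grey band is the first 4 kb). Each gene starts with regions near 0% (in Axin2 after 2 methylated flank regions), and most regions farther in lie above 80% or between the extremes.

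To compare whole islands, the run of neighbouring regions that averaged under 20% was drawn around the region with most CpGs. This run was drawn after the levels were seen and is given without a test. It spanned 1.8 kb with 59 CpGs in Apc, 3.04 kb with 93 CpGs in Lgr5, 4.65 kb with 160 CpGs in Tcf7l2 and 8.92 kb with 150 CpGs in Axin2. The next region inward was far more methylated in Apc, at 83.7% across a gap of 4390 bases, and in Tcf7l2, at 77.1% across 3927 bases. In Axin2 and Lgr5 the next regions inward stood between, at 22.8% and 33.9%. Of these neighbours, that of Tcf7l2 had values in only 2 libraries and that of Axin2 in 5.

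Within these runs both AOM/DSS libraries were above both controls in 3 of the 4 genes, at low levels. Of all single regions under 20%, 20% had both AOM/DSS libraries above both controls. The share among runs of other genes was not counted. In bulk epithelium another mix of cells and another level per cell cannot be told apart. The Tcf7l2 run stood at 2.43% and 3.13% with AOM/DSS plus curcumin, 3.12% and 4.06% with AOM/DSS, and 1.72% and 1.995% in control. The Axin2 run stood at 0.749% and 1.297% with AOM/DSS plus curcumin, 2.22% and 2.13% with AOM/DSS, and 1.795% and 1.147% in control. The Lgr5 run stood at 2.28% and 1.17% with AOM/DSS plus curcumin, 2.23% and 3.63% with AOM/DSS, and 0.981% and 2.175% in control, where the lower AOM/DSS library was above the higher control by a few hundredths of a point. The Apc run, the same 5 regions as its promoter end, overlapped. With curcumin the Axin2 run lay below both AOM/DSS libraries, while the runs of Lgr5 and Tcf7l2 overlapped with AOM/DSS. The Tcf7l2 run with curcumin stayed above both controls.

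**Figure D2:**
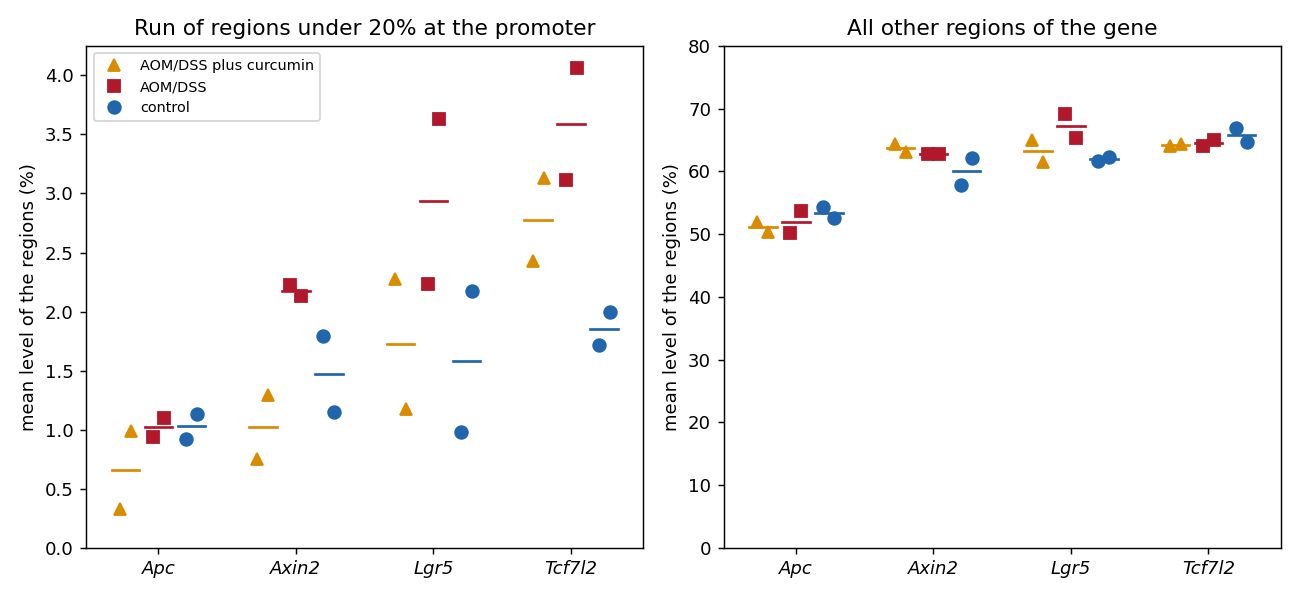
Mean level in percent of the regions of each gene, 1 point per library with the group mean as a bar, in the run of regions under 20% at the promoter (left) and in all other regions (right); triangles are AOM/DSS plus curcumin, squares AOM/DSS and circles control. In the left panel the Tcf7l2 run lies at 3.12% and 4.06% with AOM/DSS against 1.72% and 1.995% in control.

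No region of the 4 genes passed the test in any comparison. To be called, a region had to reach an adjusted p under 0.05 (edgeR, adjusted over all 179922 regions) with a difference of 10 percentage points or more between group means. For AOM/DSS against control 0 of 94 member regions were called, where 0.00389% of all regions were. At an unadjusted p under 0.05 there were 13 of 94 member regions (13.8%), against 6.34% of all regions. Limma called 0 as well, with 15 at an unadjusted p under 0.05 (16%, against 6.14% of all regions). Fisher's exact test, run on the calls of a group added together and so blind to how its libraries differ, called 3 (3.19%, against 2% of all regions).

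The 13 regions leaned one way: 10 were higher with AOM/DSS, or 10.6% of the members against 2.73% of all regions, and 3 were lower, or 3.19% against 3.62%. Of the 10, 9 were among the 41 member regions that averaged under 20% (22% of them, against 4.89% of all regions under 20%). They lay in Tcf7l2 (6), Axin2 (2) and Lgr5 (1), and none lay in Apc. Most of the 6 lay close together in the Tcf7l2 promoter island, so the 9 are not 9 separate observations. This lean rests on 1 library: without AOM/DSS replicate 1 there were 9 regions at an unadjusted p under 0.05 (9.57%, against 5.16% of all regions), 3 higher and 6 lower, whereas without AOM/DSS replicate 0 there were 17 (18.1%, against 6.49% of all regions), 11 higher and 6 lower. The median difference of the 41 low regions was 0.952 points, against 0.212 points over all regions under 20%. The groups did not overlap at 14 of the 41 with AOM/DSS higher (34.1%, against 20% of all such regions) and at 4 with AOM/DSS lower (9.76% against 13.2%). In regions over 80% the members' median difference was -0.224 points, against -1.48 points over all such regions.

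The largest difference of a member was in Lgr5, in a region of intermediate level at the inner edge of its island. This region, on chromosome 10 from 115019960 to 115020075 with 4 CpGs, lay 7.92 kb inside the window's 5′ edge. It stood at 34.3% and 29.6% with AOM/DSS plus curcumin, 48.8% and 47.5% with AOM/DSS, and 17.9% and 25.2% in control, on 80 to 121 calls. The 3 groups did not overlap, with curcumin between the others. The region was picked by its p for AOM/DSS against control, so these 2 groups are apart by that choice. They did not overlap at 41.5% of the members and 35.7% of all regions. How many regions have curcumin between them was not counted. The exact 95% binomial intervals, which cover counting error only, ran from 39.6 to 58% and from 36.2 to 59% in the AOM/DSS libraries and from 11.2 to 26.6% and from 17.6 to 34.2% in the controls. The difference between AOM/DSS and control was 26.6 points and did not pass (edgeR adjusted p = 0.477). It ran from 22.9 to 30.2 points when 1 library was left out, and its adjusted p was 0.305 with the replicate number as a block and 8.32e-06 in Fisher's test on summed calls.

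Its neighbour towards the promoter, from 115021878 to 115022001 with 6 CpGs, stood at 7.14% and 0% with AOM/DSS plus curcumin, 5.65% and 13.5% with AOM/DSS, and 2.78% and 2.41% in control. The mean was higher with AOM/DSS by 7 points (edgeR adjusted p = 0.765), or by 3.05 points without AOM/DSS replicate 1. The rest of the Lgr5 body held both extremes. Its least methylated region with 6 values, from 115023154 to 115023567 with 15 CpGs, stood at 1.72% and 2.78% with AOM/DSS plus curcumin, 0.935% and 1.07% with AOM/DSS, and 0.237% and 2.69% in control. AOM/DSS and control overlapped there, and curcumin lay above both AOM/DSS libraries. The region from 114912427 to 114912677 was the most methylated of those with 6 values, at 92.8% and 95.2% with AOM/DSS plus curcumin, 91.5% and 91.7% with AOM/DSS, and 94.3% and 92.5% in control. A low region of 14 CpGs deep in the gene, from 114915630 to 114916064, averaged 11.7% ± 1.62 with AOM/DSS plus curcumin, 18.1% ± 6.69 with AOM/DSS and 14.7% ± 10.8 in control (SD, n = 2 each). Its controls were far apart, at 22.3% and 7.01%.

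Over its 10 body regions Lgr5 averaged 52.9% and 49.4% with AOM/DSS plus curcumin, 55.9% and 53.7% with AOM/DSS, and 49.6% and 50.3% in control. AOM/DSS lay above control by 4.85 points without overlap, and the exact permutation test gave a two-sided p of 0.333, the smallest that 2 libraries against 2 allow. Curcumin lay below AOM/DSS by 3.63 points without overlap and overlapped control. With promoter ends of 4 kb, Lgr5 had the highest body difference of the 4 genes between AOM/DSS and control. With promoter ends of 8 kb, which take in the region at 115019960, it was 2.21 points, below the 3.82 points of Axin2. Of its 4 regions over 80%, 3 had higher means with AOM/DSS.

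Axin2, the feedback scaffold, gave its smallest p-values inside and beyond its broad island. The region from 108784588 to 108784770 with 12 CpGs, within the island, stood at 3.85% and 1.52% with AOM/DSS plus curcumin, 8.99% and 5.71% with AOM/DSS, and 0% and 1.25% in control. The 3 groups did not overlap. The difference between AOM/DSS and control was 6.73 points (edgeR adjusted p = 0.592), and the control at 0% had 0 of 141 calls, which allows up to 2.13%. A low region of 9 CpGs farther in, from 108797047 to 108797295, stood at 7.69% and 7.89% with AOM/DSS plus curcumin, 9.24% and 13.1% with AOM/DSS, and 4% and 2.53% in control. It too ordered the groups without overlap, with AOM/DSS higher than control by 7.91 points (edgeR adjusted p = 0.703). Both regions were picked by their p for AOM/DSS against control, so these 2 groups are apart by that choice.

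Beyond that the Axin2 body regions with 6 values were methylated. A region of 4 CpGs from 108805235 to 108805296, with values in only 3 libraries, averaged 21.5%. The highest body region with 6 values, from 108807433 to 108807567 with 6 CpGs, stood at 89.4% and 88.2% with AOM/DSS plus curcumin, 89.7% and 87.5% with AOM/DSS, and 65.4% and 88.2% in control. Only 1 control library was apart there, on 52 calls. The region of the Axin2 window with most CpGs, 31 of them from 108783024 to 108783349, stood at 0% and 0.781% with AOM/DSS plus curcumin, 1.02% and 1.49% with AOM/DSS, and 0.755% and 1.75% in control. Over the 11 body regions the mean was 24.7% ± 0.0468 with AOM/DSS plus curcumin, 25.2% ± 0.405 with AOM/DSS and 23.2% ± 1.34 in control (SD, n = 2 each). The difference between AOM/DSS and control was 2.04 points with equal weight per region and -0.861 points when calls were pooled. Its direction thus depends on the weighting. Among the 11 is the region from 108807433, with a difference of 11.8 points, where only 1 control library was apart.

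Apc, the scaffold most often lost in colorectal tumours, had a second unmethylated stretch inside the gene. It lay from 34406933 to 34407527 in 2 regions with 15 and 13 CpGs. The first stood at 1.27% and 0.984% with AOM/DSS plus curcumin, 1.64% and 3.16% with AOM/DSS, and 0.48% and 3.33% in control. The second stood at 1.1% and 0.73% with AOM/DSS plus curcumin, 0.833% and 6.34% with AOM/DSS, and 2.47% and 0.862% in control. AOM/DSS and control overlapped in both. Curcumin lay below both AOM/DSS libraries in the first and overlapped them in the second, where the 6.34% was that of AOM/DSS replicate 1.

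The methylated regions of Apc had lower means with AOM/DSS, none passing the test. The region just past the promoter island, from 34386357 to 34386495 with 3 CpGs, stood at 85.7% and 84.1% with AOM/DSS plus curcumin, 80.5% and 76% with AOM/DSS, and 88.6% and 87.4% in control. The difference between AOM/DSS and control was -9.76 points (edgeR adjusted p = 0.781). The most methylated region, from 34471935 to 34472233 with 8 CpGs, stood at 92.5% and 95.5% with AOM/DSS plus curcumin, 90.9% and 94.3% with AOM/DSS, and 95.9% and 96.3% in control. All 4 Apc regions over 80% had lower means with AOM/DSS than in control, with a median of -4.62 points, against -1.48 points over all regions over 80%. All 4 had higher means with curcumin than with AOM/DSS, with a median of 1.79 points, against 1.19 points over all regions over 80%. Both comparisons use the same AOM/DSS libraries, and none of these 4 passed the test in either. Over the 10 body regions the groups AOM/DSS and control overlapped, at 50.2% and 53.7% against 54.2% and 52.6%.

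Tcf7l2, the transcription factor, has the longest window and 64 of the 117 regions. Of its 46 body regions with 6 values, 12 averaged under 20%, 12 between 20 and 80% and 22 over 80%. The unmethylated ones were not all at the promoter: a dense region of 22 CpGs from 55969876 to 55970254 averaged 5.78% ± 2.096 with AOM/DSS plus curcumin, 7.16% ± 1.39 with AOM/DSS and 4.41% ± 0.124 in control (SD, n = 2 each). The least methylated body region with 6 values, from 55818091 to 55818464 with 24 CpGs, lay in the promoter island and stood at 0.455% and 0.833% with AOM/DSS plus curcumin, 0.673% and 2.03% with AOM/DSS, and 0.649% and 1.3% in control. Whether the dense inner region belongs to the second start of the table was not tested, since the builds differ. The region of highest level among those with 6 values, from 56002293 to 56002521 near the 3′ end, stood at 99.4% and 97.7% with AOM/DSS plus curcumin, 98% and 98.8% with AOM/DSS, and 95.5% and 97% in control.

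The Tcf7l2 body region with the smallest p had its lowest levels with AOM/DSS, while curcumin and control differed by 0.281 points, less than their spread. This region, on chromosome 19 from 55940370 to 55940652 with 8 CpGs, stood at 24.2% and 34.6% with AOM/DSS plus curcumin, 10.4% and 11.6% with AOM/DSS, and 31.4% and 26.9% in control, on 78 to 102 calls. Both AOM/DSS libraries lay below the 4 others. The difference was -18.2 points for AOM/DSS against control (edgeR adjusted p = 0.621) and 18.4 points for AOM/DSS plus curcumin against AOM/DSS (edgeR adjusted p = 0.905). Neither passed in edgeR or limma, while Fisher's test on summed calls gave adjusted p-values of 0.00151 and 0.00527. These 2 differences share the AOM/DSS libraries, so they are not 2 separate observations.

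A further intermediate region of Tcf7l2 is named because Fisher's test called it, a choice made after its values were seen. It lay from 55861898 to 55862142 with 14 CpGs and stood at 60.3% and 68.5% with AOM/DSS plus curcumin, 57.6% and 49.2% with AOM/DSS, and 68.3% and 74.3% in control. The difference between AOM/DSS and control was -17.9 points (edgeR adjusted p = 0.712). Among the 12 intermediate body regions of Tcf7l2, 9 had lower means with AOM/DSS and 3 higher, with a median of -5.13 points, against -1.95 points over all regions at 20 to 80%. Of all 20 member regions at 20 to 80%, 14 had lower means with AOM/DSS and 6 higher, the Lgr5 region at 115019960 among the 6. Their median was -4.42 points. AOM/DSS lay below control without overlap at 25% of the 20, against 25.5% of all regions at 20 to 80%. It lay above control without overlap at 20% of the 20, against 12% of all such regions.

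At the inner edge of the Tcf7l2 island the levels ran the other way. The region from 55819073 to 55819428 with 17 CpGs stood at 4.35% and 3.83% with AOM/DSS plus curcumin, 2.8% and 7.3% with AOM/DSS, and 1.38% and 0% in control. AOM/DSS was higher than control by 4.36 points (edgeR adjusted p = 0.625), and by 2.11 points without AOM/DSS replicate 1. The last region of the island, from 55819809 to 55820163 with 10 CpGs, averaged 10.1% ± 0.665 with AOM/DSS plus curcumin, 13.3% ± 1.39 with AOM/DSS and 8.18% ± 1.47 in control (SD, n = 2 each). The 3 groups did not overlap in this last region, with curcumin in the middle, whereas in the one before it curcumin overlapped AOM/DSS. The share of all regions with such an order was not counted. At the outer edge, the region from 55815513 to 55815656 with 3 CpGs had no methylated call in either control library and stood at 3.31% and 2.36% with AOM/DSS.

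**Figure D3:**
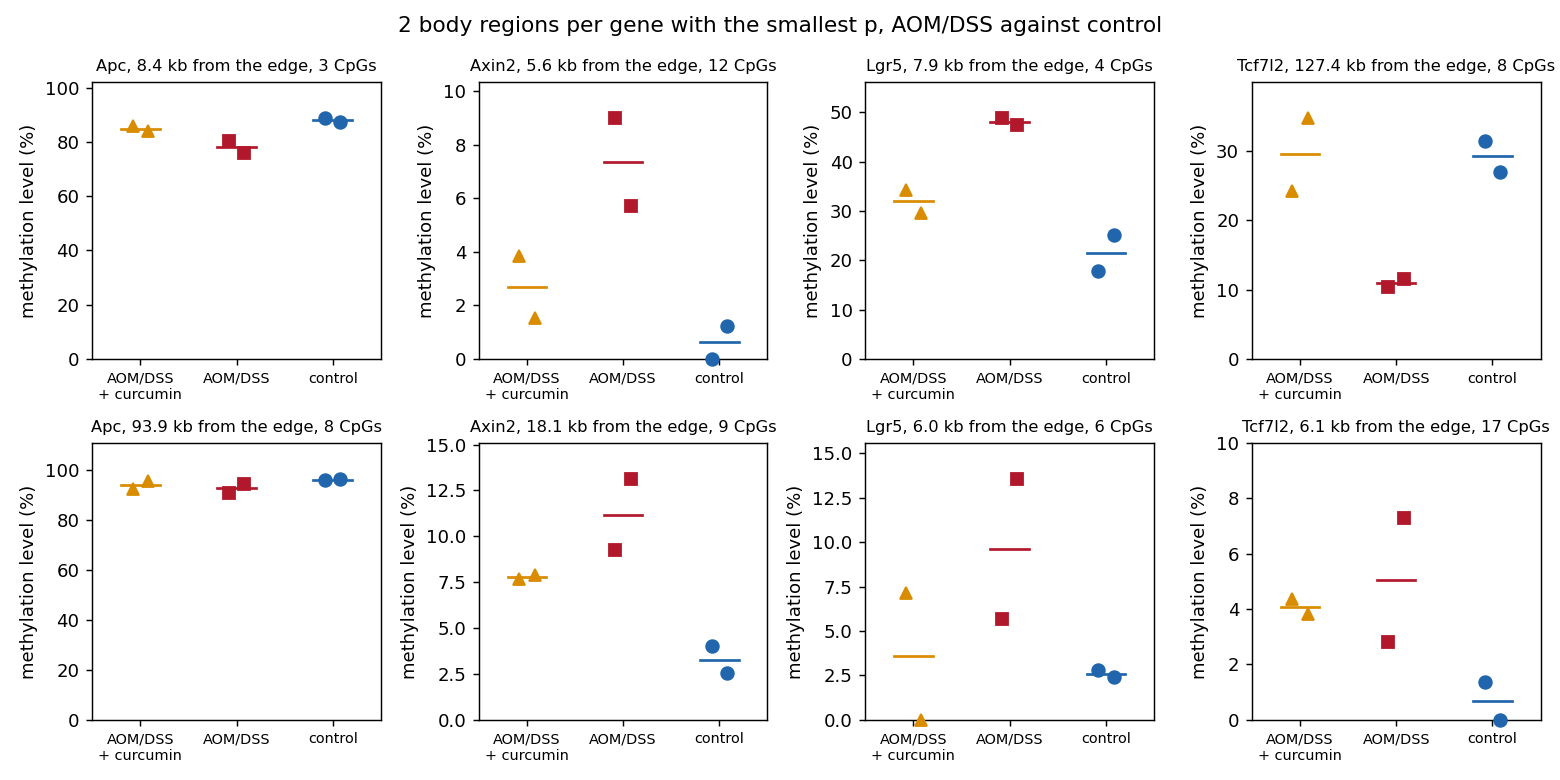
Methylation level in percent in each library at the 2 body regions per gene with the smallest p for AOM/DSS against control, 1 panel per region with the group mean as a bar and an axis of its own from 0. Lgr5 at 7.9 kb lies at 48.8% and 47.5% with AOM/DSS against 17.9% and 25.2% in control, and Tcf7l2 at 127.4 kb at 10.4% and 11.6% against 31.4% and 26.9%.

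For AOM/DSS plus curcumin against AOM/DSS, 0 of 94 member regions were called, as were 0% of all regions. At an unadjusted p under 0.05 there were 7 of 94 (7.45%), against 5.25% of all regions. Of the 7, 6 were lower with curcumin (6.38%, against 2.69% of all regions) and 1 was higher (1.06% against 2.56%). Limma called 0 member regions, with 8 at an unadjusted p under 0.05 (8.51%, against 5.55% of all regions). Fisher's test called 1, the Tcf7l2 region from 55940370 (1.06%, against 0.998% of all regions). In the 41 low regions the median difference was -0.911 points, with 31 lower and 9 higher means, against a median of -0.247 points over all regions under 20%. The count of 7 became 2 of 73 member regions (2.74%, against 5.45% of all regions) when at least 50 calls were required in each library. Leaving out 1 library, which leaves 1 in its group, moved the members' share both ways. It fell below that of all regions without AOM/DSS replicate 1 or without either curcumin library. Without AOM/DSS replicate 0 it stayed above that of all regions.

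The named regions of this comparison were often shallow. The Apc region from 34407660 to 34407755, with 3 CpGs beside the second unmethylated stretch, stood at 31% and 14.7% with AOM/DSS plus curcumin, 37.5% and 57.4% with AOM/DSS, and 29.6% and 29.8% in control. It rests on 27 to 48 calls, and the difference of -24.6 points between curcumin and AOM/DSS did not pass (edgeR adjusted p = 0.928). A Tcf7l2 region from 55912792 to 55912934, with 3 CpGs, had no methylated call in the curcumin and control libraries, and stood at 2.44% and 17.6% with AOM/DSS. The 0 of 31 calls in a curcumin library allows up to 9.68%. The Lgr5 region from 114957768 to 114957869, with 5 CpGs, stood at 82.1% and 89.3% with AOM/DSS plus curcumin, 96.9% and 96.3% with AOM/DSS, and 93% and 100% in control, on 20 to 54 calls.

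Of the other regions this comparison brings out, those in Axin2 and Apc stayed near the floor. The Axin2 region from 108786719 to 108786977 with 5 CpGs had no methylated call with AOM/DSS plus curcumin, on 81 and 67 calls, and stood at 5.13% and 0% with AOM/DSS. The Lgr5 region at 115019960 was lower with curcumin by 16.2 points (edgeR adjusted p = 0.936), which left it above both controls. Over whole gene bodies the difference between curcumin and AOM/DSS was -0.79 points in Apc, -0.537 in Axin2 and -0.359 in Tcf7l2, beside -3.63 in Lgr5. Apc and Tcf7l2 overlapped between the 2 groups, and Axin2 did not. The sign turned to 2.34 points in Apc when calls were pooled, to 0.46 in Axin2 with promoter ends of 6 kb and to 0.417 in Tcf7l2 with at least 50 calls.

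**Figure D4:**
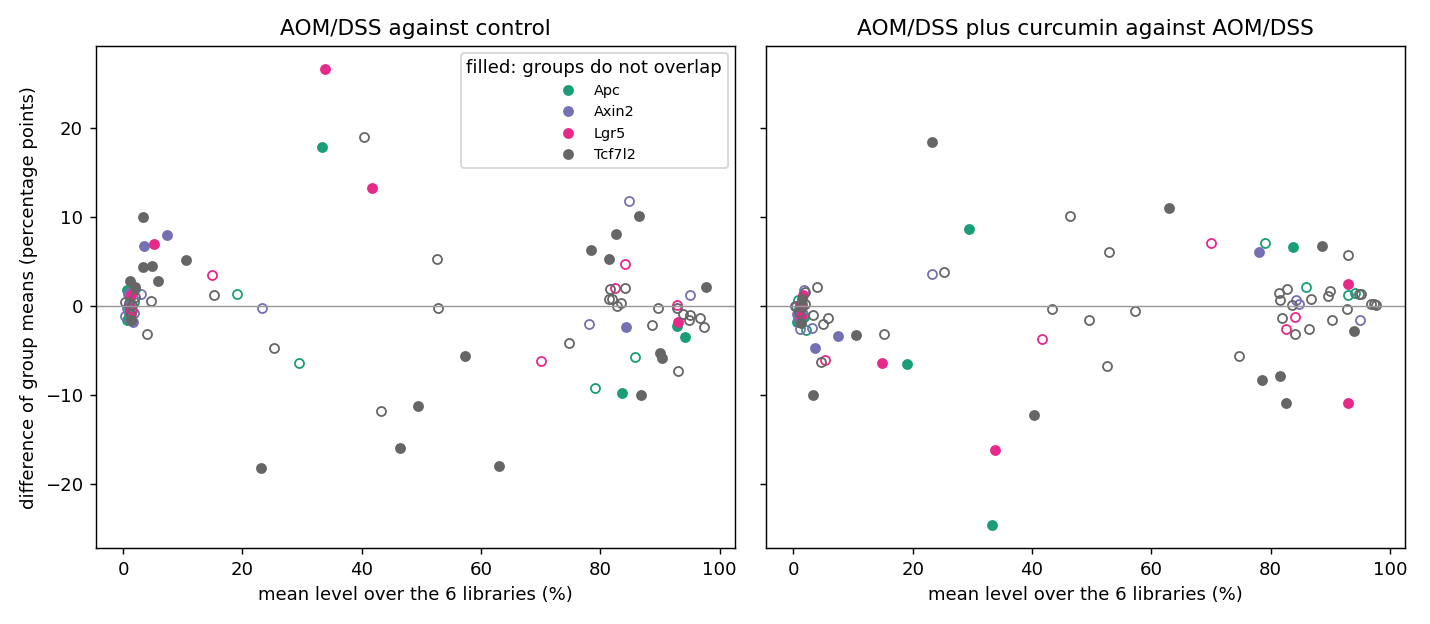
Difference of group means in percentage points of each of the 94 tested regions against its mean level in percent over the 6 libraries, for AOM/DSS against control (left) and AOM/DSS plus curcumin against AOM/DSS (right), coloured by gene and filled where the groups do not overlap. The 2 panels share the AOM/DSS libraries; the highest point on the left is the Lgr5 region at 26.6 points and the lowest on the right the Apc region at -24.6 points.

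For AOM/DSS plus curcumin against control, 0 of 94 member regions were called, as were 0% of all regions. At an unadjusted p under 0.05 there were 6 of 94 (6.38%), against 4.17% of all regions, 3 of them higher (3.19% against 1.83%) and 3 lower (3.19% against 2.34%). Limma and Fisher's test called 0 member regions too, where Fisher's test called 0.355% of all regions. They had 8 (8.51%, against 5.19% of all regions) and 10 (10.6%, against 10.2%) at an unadjusted p under 0.05. Leaving out 1 library, which leaves 1 in its group, moved the members' share both ways. It fell below that of all regions without AOM/DSS plus curcumin replicate 0 or control replicate 0. It stayed above that of all regions without AOM/DSS plus curcumin replicate 1 or control replicate 1. The 2 Tcf7l2 regions with the smallest p were both in its island and higher with curcumin: the one from 55819073 by 3.4 points, and one from 55817602 to 55817880 with 22 CpGs, at 2.45% and 3.14% with AOM/DSS plus curcumin and 0.437% and 0.465% in control. In the Axin2 island the region from 108783619 to 108783697 with 7 CpGs was lower, at 0% and 0.909% with AOM/DSS plus curcumin against 2.76% and 3.55% in control. None passed (edgeR adjusted p = 1 in each).

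In Apc the smallest p of this comparison was at the promoter end, in the region from 34380166 to 34380569 with 26 CpGs. The difference there was -1.29 points without overlap (edgeR unadjusted p = 0.0341), and it did not pass after adjustment. In the Apc body the smallest p was that of a sparse region from 34403810 to 34403979 with 5 CpGs. That region stood at 11.3% and 19% with AOM/DSS plus curcumin and 23.8% and 16.8% in control, which overlap. The Apc body averaged 51.9% and 50.3% with AOM/DSS plus curcumin and 54.2% and 52.6% in control, a difference of -2.32 points without overlap. The Tcf7l2 body differed by -1.15 points and the Axin2 body by 1.51 points, also without overlap, and the Lgr5 body by 1.23 points with overlap. The Axin2 value turned to -1.95 points when calls were pooled. It includes the region from 108807433, with a difference of 12 points, where only 1 control library was apart. Each of the 3 without overlap gave the exact permutation test's smallest two-sided p, 0.333.

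Across the 94 regions the level fell with the number of CpGs, as over the whole series. Spearman's rho was -0.338 over the members and -0.451 over all 179922 regions, a description in which the regions share libraries. The members held more regions over 80% than the series (35.1% against 23.3%) and fewer between 20 and 80% (21.3% against 33.5%), with nearly the same share under 20% (43.6% against 43.2%). Libraries of a group differed at the members by a mean of 3.95 points with AOM/DSS plus curcumin, 4.75 with AOM/DSS and 4.19 in control, against 4.58, 4.77 and 4.92 points over all regions.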

How the data were processed

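Libraries were made with Agilent's SureSelectXT Mouse Methyl-Seq capture and bisulfite-sequenced, per the labels' protocols. Bismark 0.15.0, ChIPseeker 1.10.3 and R 3.4.0 with build mm9 are named in the submitters' processing notes; which step each served, how regions were drawn and the handling of duplicates: not given in the sources used here. Counts are what was deposited: per region the CpGs, the methylation calls summed over them and the methylated calls, blank under 20 calls. Calls of 1 read are not independent, so binomial intervals and zero limits (3 counts) cover counting error only.

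Regions with at least 10 calls in all 6 libraries were fitted with edgeR 4.0.16 in R 4.3.3 (quasi-likelihood test on methylated and unmethylated calls, a coefficient per library, 1 shared spread), adjusted by Benjamini-Hochberg over all of them. The fit was tested on simulated data. Gene means were computed in Python 3.11.15 and compared by exact two-sided permutation. Alternatives were limma 3.58.1, Fisher's exact test, 50 calls, other minimum differences, 4 libraries, each library left out, a replicate block, pooled calls, and wider promoter ends. Members, named regions and lists were chosen with earlier results of these data known. Named were, per gene, the region with most CpGs at the promoter end, the lowest and highest body regions, and per comparison the 2 body regions of smallest p; further regions were named after their values were seen. A Wnt pathway list and marker lists could not be placed without an mm9 annotation.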

Additional observations from a re-analysis of the deposited data

How the results depend on the processing

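The count of called member regions was 0 in each comparison under every alternative tried except Fisher's exact test, which called 3 for AOM/DSS against control (3.19%, against 2% of all regions) and 1 for AOM/DSS plus curcumin against AOM/DSS (1.06%, against 0.998%). Leaving out any 1 library gave 0 calls. With a replicate block the count was 0 in each comparison as well. The labels do not say whether libraries with the same replicate number belong together. Correlations of the replicate differences between groups were 0.0548, 0.0121 and 0.00754. The block called 41 regions of all 179922 for AOM/DSS against control, where 7 were called without it.

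Differences of gene means, none of which can pass with 2 libraries a group, often turned sign near 0, and the cause was not tested. Pooled calls weight each region by its calls in each library, so a pooled value also moves with coverage. At the 5 regions of the Axin2 promoter end the differences ran from -1.16 to 1.3 points (AOM/DSS against control). For curcumin against AOM/DSS they ran from -1.53 to 3.55 points. The pooled -4.99 and 6.61 points there are thus not level changes of that size. With pooled calls the promoter end turned to -4.99 points in Axin2 and -0.183 in Lgr5 and the body to -0.861 in Axin2 and 0.842 in Tcf7l2 (AOM/DSS against control), to 2.34 in the Apc body and 6.61 at the Axin2 promoter end (curcumin against AOM/DSS), and to -1.95 in the Axin2 body (curcumin against control). With at least 50 calls, the difference between curcumin and AOM/DSS turned to 0.849 in the Apc body, 0.277 at the Axin2 promoter end and 0.417 in the Tcf7l2 body. With a promoter end of 6 kb, 8 kb or the run under 20% (chosen after seeing the data), the Axin2 body turned to 0.46, 0.882 and 0.926 (curcumin against AOM/DSS), and for curcumin against control the promoter ends turned to -0.145, -0.118 and -0.448 in Axin2, 0.147, 1.85 and 0.147 in Lgr5, and 0.221, 0.923 and 0.923 in Tcf7l2.

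Leaving out 1 library, the ranges that crossed 0 for AOM/DSS against control were -0.113 to 0.0949 (Apc promoter end), -3.26 to 0.21 (Apc body), -0.3 to 0.668 (Axin2 promoter end), -0.569 to 0.726 (Lgr5 promoter end), -0.0941 to 0.503 (Tcf7l2 promoter end) and -1.76 to 0.166 (Tcf7l2 body). For curcumin against AOM/DSS they were -2.53 to 0.947 (Apc body), -0.5 to 0.468 (Axin2 promoter end), -0.827 to 0.108 (Tcf7l2 body) and -5.42 to 0.0811 at the Apc region from 34407236. For curcumin against control they were -0.989 to 0.306 (Lgr5 promoter end), -0.528 to 2.98 (Lgr5 body) and -0.41 to 0.188 (Tcf7l2 promoter end). The Lgr5 body difference between AOM/DSS and control kept its direction under every alternative tried.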
